A study of Mus musculus with 12 samples.

Results

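The comparison described here sets the colon of TSP-null mice after azoxymethane and dextran sulfate sodium (AOM/DSS) against the colon of TSP-null mice given water. Its members are 6 of the 12 arrays of the series, chosen by their labels: 3 labelled TSP-null and AOM/DSS treated, and 3 labelled TSP-null and water. All were Affymetrix MoGene 1.0 ST arrays hybridized with colon RNA, and the labels call the 3 arrays of a group biological replicates. The other 6 arrays are wild-type (WT) colon, 3 after AOM/DSS and 3 on water. They enter here to set a baseline, to say where the genotypes differed, and in a split of all 12 arrays into AOM/DSS and water. The strain is given as C57/BL/6 for the treated arrays and C57BL/6 for the water arrays. According to the methods the mice were male, 7 weeks old at the start, and received a single AOM injection of 10 mg/kg and then 1.5% DSS in 4 cycles, each lasting 7 days. Tissue was taken 15 weeks after the injection. The labels place the AOM injection on the first day of DSS, whereas the methods place it a week earlier. The protocol text attached to the water arrays describes another experiment, with 2.5% DSS for 7 days, so whether the water mice were housed and processed with the treated mice is not known. Treated RNA is described as coming from diseased colonic tissue in the methods and from excised tumors in the design text, and which of these applies was not settled.

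AOM is a carcinogen that mutates the colonic epithelium, and DSS in drinking water injures that epithelium and causes colitis, so that the pair gives tumors on an inflamed background. Tumors in this model commonly carry activating mutations of beta-catenin, and genes of the Wnt pathway are therefore a usual readout, among them secreted inhibitors that the pathway induces as negative feedback. Thrombospondin 1 (TSP-1, encoded by Thbs1) is a matrix glycoprotein that inhibits the formation of blood vessels and can activate latent TGF-beta. TSP-null mice lack the protein in every tissue.

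Each value below is a log2 level relative to the median of that probe over the 12 arrays, so levels can be compared between arrays for 1 gene but not between genes. The deposited water columns do not share this zero. Of the 28853 probes, 5785 had a pair of AOM/DSS arrays that were exact negatives of each other, as the 2 middle arrays around a median are, and 1909 had such a pair of water arrays, but 6 had a pair made of an AOM/DSS and a water array. Each probe's 6 water values were therefore moved by a single offset that brings the 12-array median to 0. The response is the mean of the 3 TSP-null AOM/DSS arrays minus the mean of the 3 TSP-null water arrays. Because treatment and array set coincide, an effect of treatment and an effect of the array set cannot be told apart in it, and no test was run on it (3 arrays against 3 cannot go below an exact two-sided p of 0.1). A probe is described as higher or lower after AOM/DSS when the means were at least 2-fold apart and no treated array overlapped a water array.

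The Thbs1 probe did not mark the genotype. It read 0.81, 0.85 and 0.93 on the TSP-null AOM/DSS arrays, 0.27, -0.16 and -0.07 on the WT AOM/DSS arrays, 0.54, -0.42 and -0.61 on the TSP-null water arrays and -0.82, -0.45 and 0.07 on the WT water arrays. TSP-null arrays were thus not below WT arrays in either array set. These mice keep the gene with an engineered mutation that covers exons 2 to 3 and intron 3 and leaves no protein. Whether the probe set reads that stretch is not given in the sources used here, so its level does not check the labels, and genotypes are those the labels give.

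Among the 6 TSP-null arrays, 3 stood apart in genes of other origins. On the array labelled TSP-null water 3, Xist, the RNA that coats the inactive X chromosome of females, read 7.93 against -0.08 and 0.23 on the other water arrays, while the Y-linked Eif2s3y read -6.41 and Kdm5d -5.82. This array goes against the statement that the mice were male. It was also low in Hoxb13 (-5.85) and Hoxa13 (-3.80), transcription factors of the distal colon. TSP-null water 1 was high in genes of neutrophils and inflamed tissue: S100a9, a calcium-binding protein of neutrophils, read 5.62 on it, against -0.86 and -0.13 on the other water arrays and 3.40 to 5.29 after AOM/DSS. Its median over the neutrophil and monocyte list was 1.98, above the 0.70, 1.23 and 1.42 of the treated arrays. TSP-null AOM/DSS 3 held pancreatic transcripts, with a median of 5.89 over 20 probes against 0.01 and 0.11 on the other treated arrays. Its values also had the widest spread, with an SD over probes of 0.751 where the other TSP-null arrays lay between 0.259 and 0.453. For many of the lists below, counts without single arrays are given as well.

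**Figure D1:**
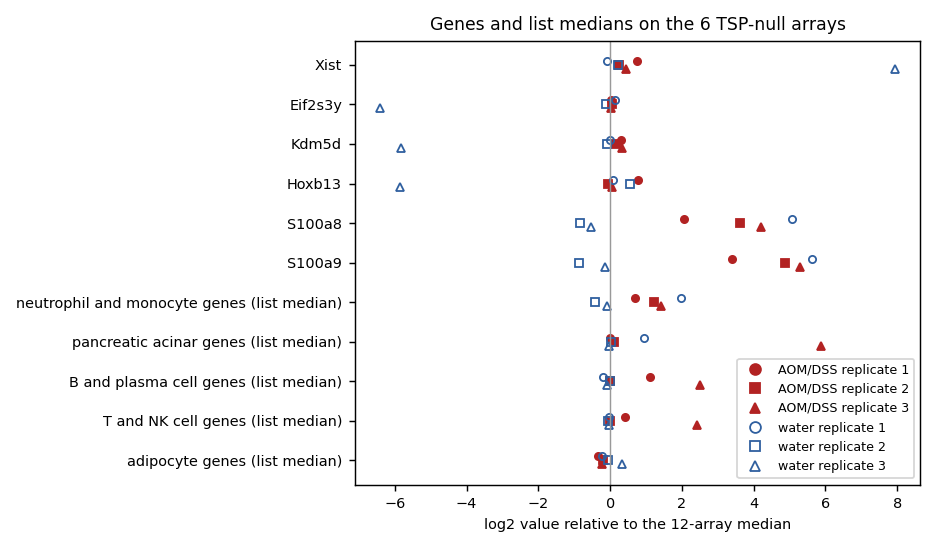
Log2 level relative to the 12-array median (x axis) on the 6 TSP-null arrays for 6 genes and for the medians of 5 gene lists (y axis); filled red symbols are AOM/DSS arrays, open blue symbols water arrays, and the shape gives the replicate. Water 3 sits alone in Xist (7.93) and the Y-linked genes, and water 1 reads with the treated arrays in S100a8 and S100a9. AOM/DSS 3 sits alone in the median of pancreatic genes (5.89), with water 1 next (0.93).

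After AOM/DSS, 808 of 28815 probes were higher (2.80%) and 521 were lower (1.81%). The difference passed 5-fold for 116 probes that were higher and 56 that were lower, and 10-fold for 45 and 12. Quantile normalizing the 12 re-based arrays again reversed the balance, with 335 higher and 408 lower. Leaving out AOM/DSS 3 gave 618 higher and 400 lower, leaving out water 1 gave 950 and 541, and leaving out water 3 gave 995 and 606; 435 probes were higher and 299 lower whichever of the 6 arrays was left out. The median response of all probes was 0.06. At any size of difference, the groups did not overlap for 20.6% of probes on the higher side and 15.4% on the lower side. By the same description 59 probes were higher and 215 lower in WT colon. The lists below are described by their counts beside the 2.80% and 1.81% of all probes, without a test of the list.

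Among probes with 1 gene symbol, the largest responses belonged to genes of separate roles. A probe without a single symbol had a response of 6.26, above the 6.20 of Rfx4, and such probes are not ranked here. Rfx4, a transcription factor of the regulatory factor X family best known from brain and testis, was 73.3-fold higher. It was followed by Defa24, an antimicrobial defensin of Paneth cells (51.3-fold), and by the mast cell proteases Mcpt2 (41.4-fold) and Mcpt1 (28.3-fold). At the other end stood Osr2, a zinc finger transcription factor with a regional pattern in the gut (25.4-fold lower), S100g, an intestinal calcium-binding protein (24.7-fold lower), Slc30a10, a manganese exporter (21.9-fold lower), and Slc51a, a subunit of the basolateral bile acid transporter (19.9-fold lower). The study's own table of leading genes was drawn from these samples, so it is not independent evidence of a direction. All 14 of its higher genes measured here were higher, with a median response of 3.63, and all 12 of its lower genes were lower, with a median of -2.84.

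**Figure D2:**
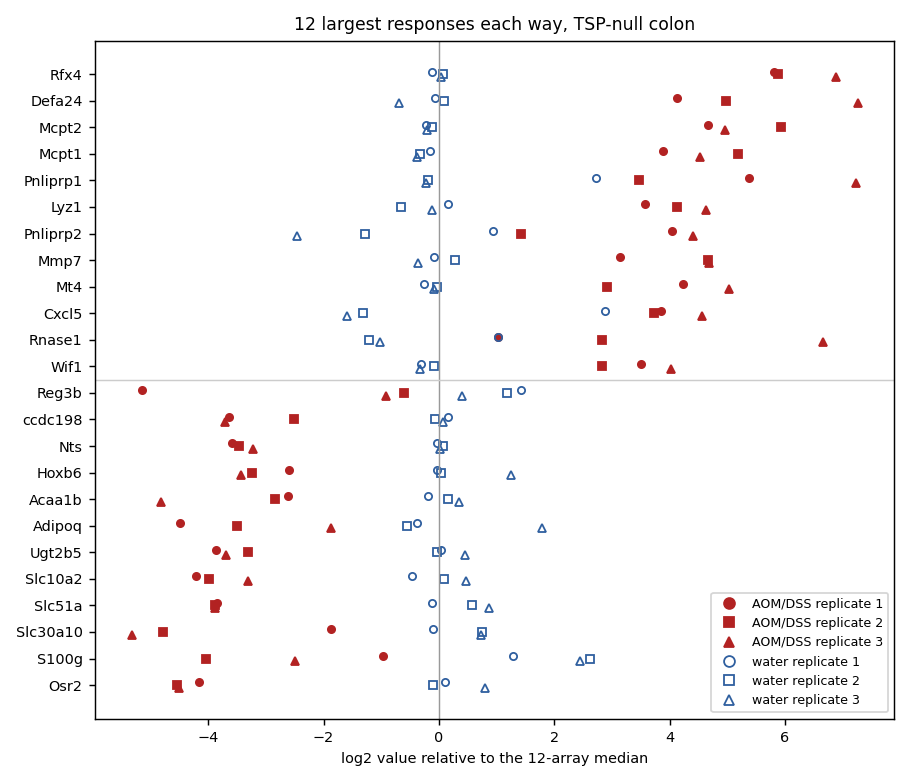
Log2 level relative to the 12-array median (x axis) of the 12 genes with the largest positive and the 12 with the largest negative response (y axis, separated by the grey line) on the 3 TSP-null AOM/DSS arrays (filled red) and the 3 TSP-null water arrays (open blue). Rfx4 has the widest gap, with treated arrays at 5.80 to 6.88 and water arrays at -0.13 to 0.07, whereas Pnliprp1, Pnliprp2, Rnase1, Cxcl5 and Reg3b spread over several log2 units within a group.

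Rfx4 was the gene whose response differed most between genotypes. It read 5.80, 5.87 and 6.88 on the TSP-null AOM/DSS arrays and -0.13, 0.07 and 0.03 on the TSP-null water arrays, a 73.3-fold response with SDs of 0.60 and 0.10 (n = 3 each). On the WT AOM/DSS arrays it read -0.34, -0.19 and -0.06, and on the WT water arrays -0.03, -0.12 and 0.16. All 3 treated TSP-null arrays stood more than 5 log2 units above the other 9. The difference between the TSP-null and the WT response, which needs no offset because each genotype difference is taken within 1 array set, was 6.39 (SE 0.335, limma adjusted p = 7.98e-06). The other measured members of the family differed by far less in TSP-null colon: Rfx1 had a response of 0.19, Rfx2 of -0.12, Rfx3 of 0.80 and Rfx6 of -0.18.

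Atp6v0d2, a subunit of the vacuolar proton pump found in osteoclasts and activated macrophages, was the other gene that passed this test, out of 28815 probes (0.00694%). It read 2.05, 3.09 and 2.91 after AOM/DSS. On the 3 TSP-null water arrays it lay within 0.01 of 0, on the WT water arrays at 0.23, -0.21 and 0.17, and on the WT AOM/DSS arrays at -0.20, -0.25 and -0.29. The treated TSP-null arrays therefore overlapped no others. The genotype difference was 2.99 (SE 0.320, limma adjusted p = 0.0115), and the call was lost without WT AOM/DSS 3 (adjusted p = 0.0753), without WT water 1, without TSP-null water 2 and with a replicate block (0.0592). Both genes rose more in TSP-null than in WT colon. Next in order and short of the threshold were Krt36, a hair keratin, and Sbspon, a matrix protein (limma adjusted p = 0.0537 for both). At an unadjusted p under 0.05 there were 4431 probes.

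A single WT array bore on this count. Without WT AOM/DSS 1 the number of genotype differences was 292, of which 152 were more positive and 140 more negative in TSP-null colon, and without TSP-null AOM/DSS 2 it was 138. Mcpt2 shows the pattern: WT AOM/DSS 1 read 5.97 for it, just above the 4.67 to 5.93 of the treated TSP-null arrays, while the other WT treated arrays read 0.04 and -0.04. Its genotype difference of 3.20 (SE 1.68) had a limma adjusted p of 0.359 with all arrays and 0.000381 without WT AOM/DSS 1. For Osr2 the adjusted p was 0.286 with all arrays and 0.000473 without it, since WT AOM/DSS 1 read -4.13 and the other WT treated arrays 0.94 and 1.19. An effect seen below in TSP-null colon is thus not shown to be absent in WT colon.

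**Figure D3:**
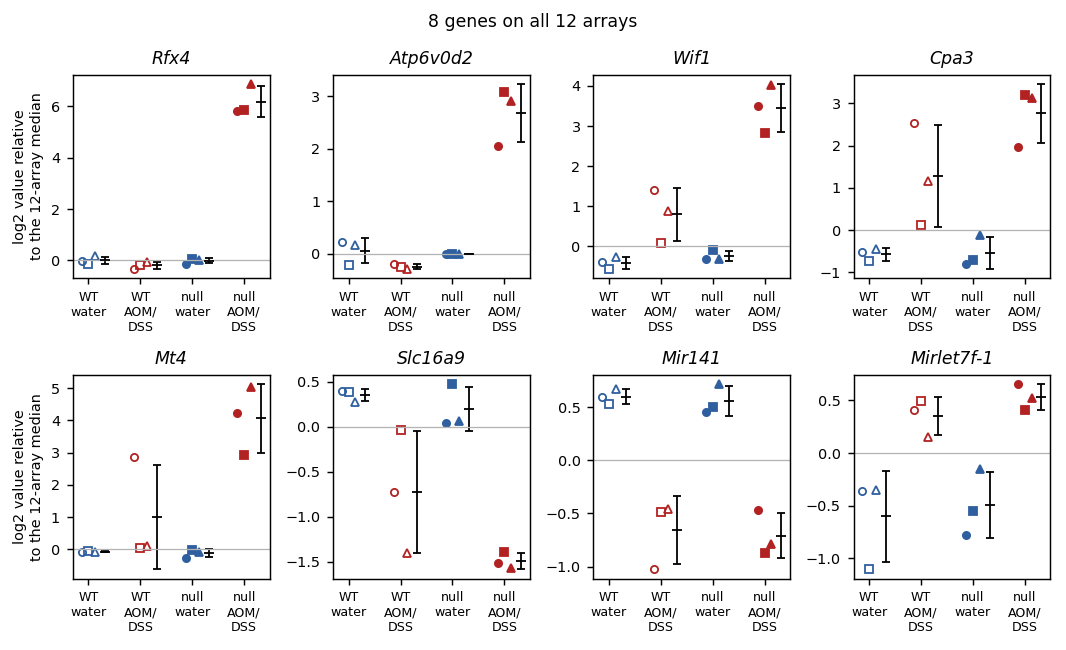
Log2 level relative to the 12-array median (y axis) of 8 genes on all 12 arrays, by group (x axis); blue symbols are water and red AOM/DSS arrays, open symbols WT and filled symbols TSP-null, and the bar beside each group is the mean with its SD (n = 3). Rfx4 and Atp6v0d2 leave the zero line on the treated TSP-null arrays, while Wif1, Cpa3, Mt4 and Mirlet7f-1 were above 0 on all 6 treated arrays and Slc16a9 and Mir141 were below 0 on all 6.

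Many genes that restrain Wnt signaling were higher in TSP-null colon after AOM/DSS. Of 22 probes for Wnt inhibitors and feedback genes, 10 were higher and none was lower, with a median response of 0.65, against -0.02 in WT colon. The count was 9 without AOM/DSS 3, 10 without water 1 and 11 without water 3. In bulk tissue, more cells of a type and more RNA per cell cannot be told apart, here or in the lists that follow.

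Wif1, a secreted protein that binds Wnt ligands, read 3.50, 2.84 and 4.03 after AOM/DSS and -0.30, -0.09 and -0.32 on water, a 12.9-fold difference. Its WT treated arrays also lay above 0, at 1.41, 0.09 and 0.89, so Wif1 rose on all 6 AOM/DSS arrays. Nkd1, an intracellular inhibitor of Dishevelled, read 3.28, 2.81 and 3.33 against -0.54, -0.66 and -0.16 (12.1-fold). The treated arrays of both genes were close together and far from the water arrays. Dkk2, a ligand of the LRP co-receptors, read 2.94, 3.78 and 3.14 against 0.15, 0.05 and -0.42 (10.3-fold). Apcdd1, a membrane inhibitor, read 3.25, 2.65 and 3.14 against -0.17, -0.26 and 0.20 (8.50-fold). Notum, a lipase that inactivates Wnt ligands, read 3.34, 1.44 and 3.51 against -0.01, -0.08 and -0.04. Array 2 was the lowest treated array in Wif1, Nkd1, Apcdd1 and Notum but the highest in Dkk2. Axin2, the scaffold of the beta-catenin destruction complex and a classical target of the pathway, had a response of 1.52. The genotype difference of Wif1 was 2.49 (SE 0.455, limma adjusted p = 0.121), which did not pass.

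Other Wnt targets and stem cell genes were higher for 5 of 17 probes, and again none was lower. The median was 0.53, and the count was 4 without AOM/DSS 3 and 6 without AOM/DSS 1. Prox1, a homeobox factor switched on by beta-catenin in colon tumors, read 2.79, 2.68 and 3.44 after AOM/DSS and -0.32, -0.42 and 0.02 on water (9.26-fold). Lef1, a transcription factor through which beta-catenin acts, read 2.68, 2.05 and 4.08 against -0.38, -0.08 and -0.03 (8.55-fold). Sp5, a repressor induced by Wnt, had a response of 1.73, and Lgr5, the receptor that marks crypt base stem cells, one of 1.54. Their water arrays stayed within 0.46 of 0 and their treated arrays lay between 1.07 and 2.11.

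Paneth cells secrete antimicrobial proteins at the base of small intestinal crypts and are rare or missing in normal mouse colon. Of 9 probes for their genes, 6 were higher, with a median response of 3.11 in TSP-null and 0.41 in WT colon. The count was 7 without water 1. Lyz1, the Paneth cell lysozyme, read 3.57, 4.13 and 4.63 after AOM/DSS and 0.15, -0.66 and -0.12 on water (19.9-fold). Defa24 read 4.12, 4.98 and 7.27 against -0.07, 0.09 and -0.69. Mmp7, the protease that activates defensins and is also a Wnt target of intestinal tumors, read 3.14, 4.67 and 4.68 against -0.08, 0.29 and -0.36 (18.6-fold). In these 3 genes AOM/DSS 1 was the lowest treated array and still stood more than 2 log2 units above every water array. Pla2g2a, a secreted phospholipase that kills bacteria, read 3.27, 3.86 and 3.68 against 0.74, 0.34 and -1.24. Itln1, a lectin that binds microbial sugars, had a response of 3.11, with treated arrays at 1.01, 3.48 and 4.50. Members of the defensin family are similar in sequence, so a probe named for Defa24 may also read its relatives.

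Mast cell genes were higher for 5 of 16 probes, and none was lower. Mcpt2 and Mcpt1 are chymases of mucosal mast cells, which gather in the epithelium during immune reactions of the gut. Mcpt2 read 4.67, 5.93 and 4.96 after AOM/DSS and -0.23, -0.12 and -0.21 on water. Mcpt1 read 3.89, 5.18 and 4.53 against -0.16, -0.32 and -0.38. Array 2 was the highest treated array in both, and the water arrays were within 0.22 of each other. Cpa3, the mast cell carboxypeptidase, read 1.96, 3.20 and 3.13 against -0.81, -0.72 and -0.12, and it rose on all 6 AOM/DSS arrays, with WT treated arrays at 2.53, 0.12 and 1.17. Fcer1a, the IgE-binding chain of the high-affinity receptor, read 2.47, 2.73 and 2.28 against -0.42, -0.01 and 0.01. Mcpt4, a chymase of connective tissue mast cells, had a response of 1.80. The list had 5 higher and none lower without AOM/DSS 3 or water 1, and 6 higher and none lower without water 3. It had 5 higher and 1 lower without AOM/DSS 1, and 6 higher and 1 lower without AOM/DSS 2.

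Neutrophil genes turned on a single water array. Of 19 neutrophil and monocyte probes, 3 were higher, with a median response of 0.89, and without water 1 there were 11. Cxcr2, the receptor that draws neutrophils to chemokines, read 3.66, 4.25 and 4.96 after AOM/DSS and 3.34, -0.71 and -0.58 on water, a response of 3.61 that was 4.94 without water 1. Csf3r, the receptor for granulocyte colony-stimulating factor, read 1.83, 2.15 and 2.98 against 0.01, -0.42 and 0.32 and did not depend on that array. Cxcl5, a neutrophil chemokine made by epithelium, read 3.85, 3.73 and 4.57 against 2.89, -1.31 and -1.59. Among the 10 neutrophil chemokine probes Cxcl5 and Ppbp (response 1.29) were higher, and 3 probes were without water 1 and 1 without AOM/DSS 2. Lcn2, an iron-binding antimicrobial protein of inflamed epithelium, read 2.64, 4.14 and 3.62 against 3.41, -0.11 and -0.19, so that the groups overlapped through water 1. The list of antimicrobial lectins and inflamed epithelium accordingly had 1 higher and 1 lower of 21 probes, and 8 higher and 1 lower without water 1. Other omissions gave 3 higher at most (without AOM/DSS 1) and 3 lower at most (without AOM/DSS 3 or water 3). Reg3b, a bactericidal lectin, was the lower member, at -5.15, -0.61 and -0.92 against 1.42, 1.17 and 0.39, and most of its response of -3.22 came from AOM/DSS 1.

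Macrophage genes were higher for 8 of 20 probes and lower for 1, Cd163, a scavenger receptor of resident macrophages (response -1.35). Mmp12, the macrophage elastase, read 1.27, 3.36 and 2.95 after AOM/DSS and 0.98, -0.98 and -1.85 on water. Gpnmb, a glycoprotein of lipid-laden and lysosome-rich macrophages, read 1.23, 1.75 and 1.44 against 0.72, -1.26 and -1.11, and Lyz2, the myeloid lysozyme, had a response of 1.76. The zero of Mmp12 is open by 1.13 log2 units, its response lies between 2.58 and 3.71 accordingly, and at one end of that span the groups overlap. In Mmp12 and Gpnmb the nearest water array to the treated group was water 1. Without AOM/DSS 3 the list had 5 higher and 2 lower, and at the highest allowed offset 6 higher, since Mmp12 and Apoe, the lipid carrier of macrophages, then missed. Matrix metalloproteinases and their inhibitors were higher for 3 of 16 probes (Mmp7, Mmp12 and Mmp9, the last with a response of 1.81), and 9 were higher without water 1.

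Lymphocyte genes were unevenly spread over the treated arrays. The median over the B and plasma cell list was 1.12, -0.01 and 2.50 on AOM/DSS 1, 2 and 3, and that over the T and NK cell list 0.40, 0.01 and 2.41, where the water arrays lay between -0.20 and -0.01. Cr2, the complement receptor of B cells and follicular dendritic cells, read 3.36, 0.04 and 4.27. Cd79a and Cd79b, the signaling chains of the B cell receptor, read 2.73, 0.43 and 3.92 and 2.46, 0.37 and 4.25. AOM/DSS 2 was near the water arrays in all 3 genes. Of 18 B and plasma cell probes 7 were higher, 6 without AOM/DSS 3 and 15 without AOM/DSS 2, and the median response of 1.59 was 0.84 without AOM/DSS 3. Jchain, which joins secreted IgA, read 0.68, 0.59 and 1.32 against -1.62, -2.55 and -0.63, and unlike the B cell genes it was alike on the treated arrays.

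Of 21 T and NK cell probes 8 were higher, but 3 were higher and 2 lower without AOM/DSS 3, and the median response went from 0.79 to 0.23. Cd8b1, a chain of the cytotoxic T cell co-receptor, read 0.52, 0.15 and 3.85 after AOM/DSS, and Cd3e, a chain of the T cell receptor complex, read 0.94, 0.41 and 3.69. Both depended on AOM/DSS 3: without it their responses were 0.43 and 0.83. Klrk1, the activating receptor NKG2D, read 1.34, 1.11 and 2.71 against -0.42, -0.03 and -0.24. MHC class II and antigen presentation genes were higher for 6 of 13 probes, and for 3 without AOM/DSS 3. Cd74, the invariant chain, read 1.19, 1.02 and 2.30 against -0.04, -0.12 and -0.11, while H2-Ob, a peptide-loading chain typical of B cells, read 2.24, 0.15 and 4.22. H2-Aa, a class II alpha chain, had a response of 1.50. Interferon-regulated genes were higher for 3 of 22 probes and lower for 1: Ifit2, an antiviral effector, had a response of 1.76 and Irf7, a transcription factor of the interferon response, one of -1.34, and 6 probes were higher without water 1 and 5 without AOM/DSS 1 or AOM/DSS 2.

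Genes of drug and steroid metabolism formed the broadest group on the lower side. Of 42 probes 21 were lower and none was higher, with a median response of -1.02 in TSP-null and -0.06 in WT colon. Ugt2b5, which joins glucuronic acid to steroids and drugs, read -3.87, -3.32 and -3.69 after AOM/DSS and 0.04, -0.04 and 0.46 on water (13.7-fold lower). Cyp2c65, a cytochrome P450 of the gut, read -2.97, -1.80 and -4.42 against 0.07, -0.08 and 0.38, and its neighbour in the family Cyp2c66 read -2.62, -1.57 and -3.10 against 0.26, -0.16 and 0.19. Array 2 was the least low and array 3 the lowest for both P450 genes. Ces1g, a carboxylesterase, had a response of -2.57. Cytochromes of this subfamily are close in sequence, and a probe may read more than 1 of them. The count of lower probes was 16 without AOM/DSS 3 and 21 to 25 without any other array, and the median response without AOM/DSS 3 was -0.61.

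Of the bile acid route of enterocytes, 4 genes from uptake to export were lower. Slc10a2, the apical sodium-dependent bile acid transporter, read -4.21, -3.99 and -3.31 after AOM/DSS and -0.46, 0.09 and 0.48 on water (14.7-fold lower). Fabp6, which carries bile acids through the cell, read -1.13, -1.35 and -2.06 against 0.05, 0.68 and 1.25. Slc51a read -3.84, -3.89 and -3.88 against -0.11, 0.57 and 0.87, and Slc51b, its partner in basolateral export, read -2.27, -1.62 and -3.50 against 0.09, -0.02 and 0.15. No treated array of these 4 genes came near a water array, and the 3 treated values of Slc51a were within 0.05 of each other. In all, 6 of 18 probes for bile acid and lipid transport were lower, among them Fabp1, a fatty acid carrier (response -1.07). The count was 8 without AOM/DSS 2 and 5 without water 2. As the sampling site along the colon is not given, a difference in site and an effect of treatment cannot be told apart here.

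Genes of differentiated colonocytes, the absorptive cells of the surface epithelium, were lower for 10 of 31 probes, and for 5 without AOM/DSS 3, where the median response went from -0.81 to -0.39. Hkdc1, a hexokinase-like enzyme, read -3.06, -2.85 and -3.33 after AOM/DSS and -0.15, 0.20 and 0.33 on water (9.22-fold lower). Prap1, a secreted protein of the gut lining, read -2.87, -2.90 and -2.99 against -0.22, 0.39 and -0.11 (7.66-fold lower). Tmigd1, an adhesion molecule of epithelial brush borders, read -3.01, -2.06 and -3.01 against -0.02, 0.02 and 0.16. Isx, a homeobox factor that controls vitamin A uptake, had a response of -2.50. Among single genes outside the lists, S100g read -0.97, -4.04 and -2.50 against 1.28, 2.62 and 2.45, and Slc30a10 read -1.88, -4.78 and -5.33 against -0.10, 0.74 and 0.73. AOM/DSS 1 was the least low of the treated arrays for both.

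Colonocytes burn fatty acids, chiefly the butyrate made by bacteria. Of 19 probes for fatty acid oxidation and ketogenesis, 5 were lower (3 without AOM/DSS 3, 2 without water 2 and 8 without AOM/DSS 2), and all 19 had a response below 0, with a median of -0.71, or -0.46 without AOM/DSS 3. Ppara, the nuclear receptor that switches these genes on, read -1.14, -1.44 and -1.98 after AOM/DSS and -0.01, 0.36 and 0.75 on water. Pdk4, a kinase that diverts fuel from glucose to fat, read -1.19, -1.51 and -1.64 against 0.20, -0.20 and 0.57. Acaa1b, a peroxisomal thiolase outside the list, read -2.62, -2.84 and -4.82 against -0.19, 0.16 and 0.34. Respiratory chain genes lay slightly lower: 1 of 42 probes, Uqcrc1 of complex III, was lower (response -1.01), while 40 of the 42 responses were below 0, around a median of -0.44. Uqcrc1 was at -0.79 without AOM/DSS 3, and the count of lower probes was 0 without AOM/DSS 3, water 1 or water 2, 2 without AOM/DSS 2, and 3 without AOM/DSS 1 or water 3. Glycolysis genes had 1 probe higher and 1 lower of 25, with a median of 0.03.

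**Figure D4:**
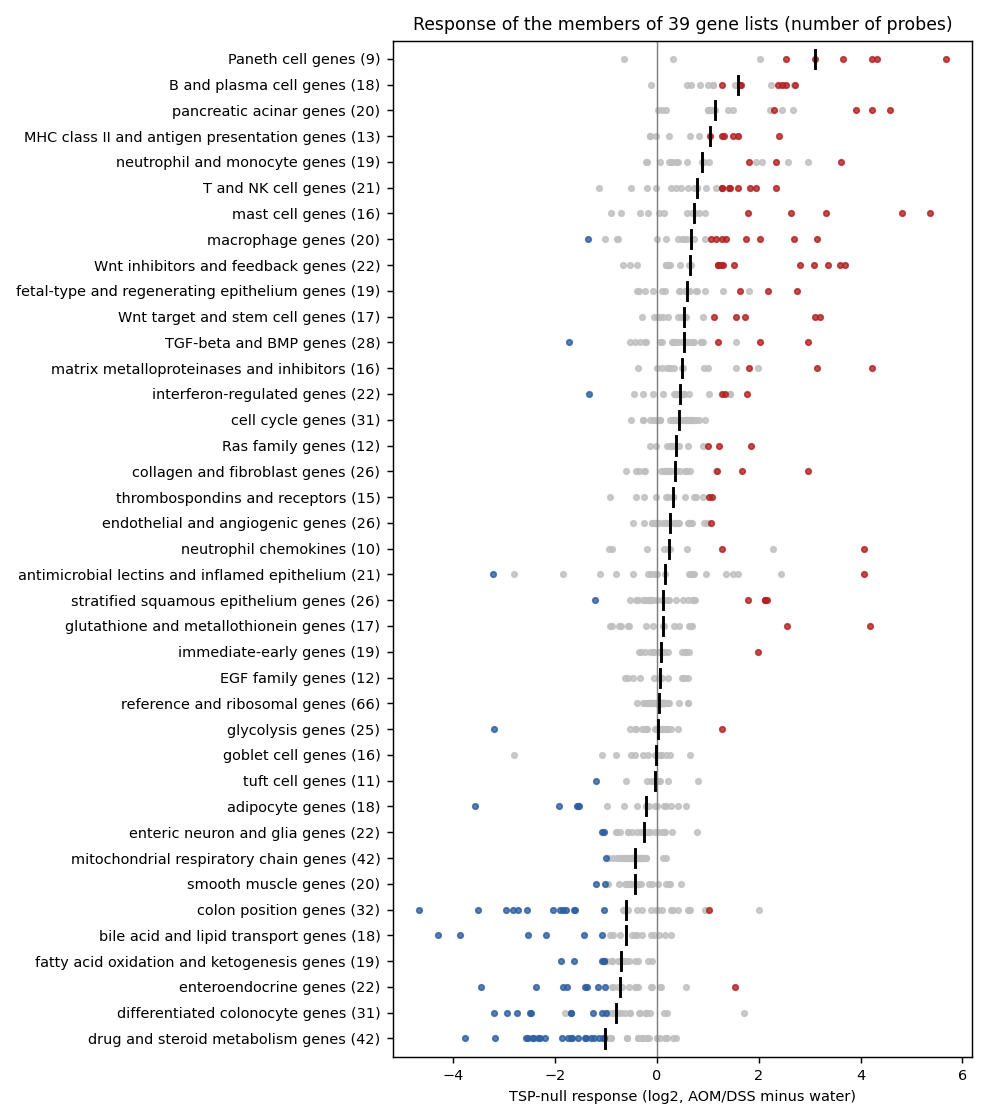
TSP-null response (x axis, log2, AOM/DSS minus water) of each probe in 39 gene lists (y axis, number of probes in brackets, ordered by the list's median); red probes were higher, blue probes lower, grey probes neither, and the black tick is the median. Paneth cell genes lead the positive side (median 3.11) and drug and steroid metabolism genes the negative side (-1.02), while reference and ribosomal genes stay close to 0 (median 0.04).

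Hormone-making cells of the epithelium were represented on the lower side. Of 22 enteroendocrine probes 8 were lower and 1 was higher, with a median response of -0.73. Nts, which encodes neurotensin, read -3.59, -3.46 and -3.22 after AOM/DSS and -0.03, 0.07 and 0.03 on water (10.9-fold lower). Sct, secretin, read -2.05, -1.96 and -2.64 against 0.12, -0.12 and 0.47. Sst, somatostatin, read -1.72, -1.40 and -2.24 against -0.06, 0.15 and 0.06, and its receptors Sstr1 and Sstr2 had responses of -0.69 and -0.41, of which neither reached 2-fold. Groups did not overlap for any of the 3 hormones, which at any size also held for 15.4% of all probes on the lower side. Tph1, the enzyme that starts serotonin synthesis in enterochromaffin cells, had a response of -1.77, and Chga, a granule protein, one of -1.38. The member that was higher was Isl1, a homeobox factor of endocrine and neural cells (1.52). Without AOM/DSS 3 the list had 5 lower and 1 higher, and its median was -0.47. None of 16 goblet cell probes was higher or lower, with a median of -0.03, but 2 were lower without AOM/DSS 2 and 1 without water 1. Of 11 tuft cell probes Trpm5, the taste transduction channel, was lower (-1.19), which rested on AOM/DSS 3, since its response was -0.93 without that array, and 2 probes were lower without AOM/DSS 2.

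Genes that mark position along the gut were lower whether or not the arrays that stood apart were included. Of 32 probes 13 were lower and 1 was higher, and 12 to 14 were lower whichever array was left out, while the higher member, Hoxa10, was not called without AOM/DSS 2 or water 3. Osr2 read -4.17, -4.53 and -4.50 after AOM/DSS and 0.10, -0.10 and 0.80 on water. Hoxb6 read -2.60, -3.25 and -3.43 against -0.03, 0.03 and 1.26. Hoxb7 read -2.37, -2.18 and -3.05 against -0.10, 0.07 and 0.60. The water array that is low in Hoxb13, water 3, was the highest of the water arrays in these 3 genes. Hoxd4 and Hoxd10 had responses of -2.96 and -2.83, and Cdx2, the factor that specifies intestinal epithelium, one of -1.62. Where along the colon each sample was taken is not given in the sources used here. A difference in sampling site and an effect of treatment therefore cannot be told apart in these genes, nor in the other lists.

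Stromal and signaling genes differed less. Collagen and fibroblast genes were higher for 3 of 26 probes: Inhba, the subunit of activin A, read 1.94, 2.81 and 2.85 after AOM/DSS and 1.10, -1.10 and -1.28 on water, Fn1, fibronectin, had a response of 1.66, and Col12a1, a fibril-associated collagen, one of 1.18. The zero of Inhba is open by 2.02 log2 units, its response lies between 1.95 and 3.97 accordingly, and at the low end the groups overlap. The collagen count was 2 without AOM/DSS 3 or at that offset, and 4 without AOM/DSS 1 or water 3. Inhbb, the other activin subunit, read 1.01, 1.51 and 1.74 against 0.07, -0.62 and -1.27. Bmp3, an inhibitor of BMP signaling, read -1.37, -1.50 and -2.44 against 0.09, -0.20 and 0.01. With Ltbp1 these made 3 higher and 1 lower of 28 TGF-beta and BMP probes. The higher count was 4 without AOM/DSS 1, water 1 or water 3, and 2 at the highest offset. The 12 EGF family probes were neither higher nor lower. Of 19 fetal-type and regenerating epithelium probes 3 were higher, and 6 without water 1 or AOM/DSS 1: Clu, a marker of revival stem cells, read 2.52, 1.39 and 3.25 against -0.14, -0.07 and -0.86, Basp1 had a response of 1.64, and Anxa8, an annexin, read 1.34, 1.37 and 1.21 against -0.02, 0.48 and -3.09, where water 3 made the response 2.19 in place of 1.08. Stratified squamous genes were higher for 4 of 26 probes, with treated arrays of Krt36 at 1.70, 2.03 and 2.16 and of Krt14 at 2.44, 1.10 and 1.55, and 1 was lower, though not without AOM/DSS 1. Smooth muscle genes were lower for 2 of 20 probes and enteric neuron and glia genes for 2 of 22, and none of either was lower without AOM/DSS 3. Without AOM/DSS 2 the counts were 4 and 3, smooth muscle also had 1 without water 3, and neurons and glia 1 without water 1 or water 2.

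TSP-1 restrains vessel growth, and the labels name it as the series' subject. Thbs1 and its relative Thbs2, also an inhibitor of angiogenesis, were the 2 higher of 15 probes for thrombospondins and their receptors. Their responses were 1.02 and 1.07, and 1 probe was higher without AOM/DSS 1, AOM/DSS 3, water 2 or water 3. None was lower with all arrays, but 1 was lower without AOM/DSS 3 and 1 without water 1. Treated arrays of Thbs2 read 1.70, 0.52 and 0.88 against -0.08, -0.18 and 0.14 on water. Of 26 endothelial and angiogenic probes only Pecam1, the adhesion molecule CD31, was higher (1.06), at 0.32, 0.51 and 1.42 against -0.57, -0.36 and 0.00, and it was not without AOM/DSS 3, where its response was 0.72, while 3 probes were higher without AOM/DSS 1, 2 without water 2, 4 without water 3 and none without water 1. Plvap, a protein of endothelial diaphragms, had a response of 0.26 and overlapped. Among 12 Ras family probes Rasgrp1 (1.85), Rasal2 (1.22) and Rhoj (1.00) were higher, and 2 of them were without AOM/DSS 1 or AOM/DSS 3 (Rhoj was just short of 2-fold without AOM/DSS 3). Of the other members that the study discusses, Rab39b (0.90) and Rab18 (-0.14) did not reach 2-fold.

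Cell cycle genes differed by less than 2-fold. None of 31 probes was higher or lower, 1 was higher without AOM/DSS 1 or AOM/DSS 2, while 25 responses were above 0 and the median was 0.44. Pcna, the sliding clamp of DNA polymerase, read 0.16, 0.04 and 0.10 after AOM/DSS and 0.02, -0.39 and -0.29 on water. Its difference was only 0.32. The groups did not overlap, but at any size this held for 20.6% of all probes on the higher side. Of 19 immediate-early probes Egr2, a transcription factor, was higher (1.99), and Myc and Jun had responses of 0.55 and 0.22. Of 66 reference and ribosomal probes none was higher or lower, with a median of 0.04. Slc7a11, the cystine importer, and Mt4, a metallothionein of squamous epithelium, were the 2 higher of 17 glutathione and metallothionein probes, with responses of 2.55 and 4.18. Stra6, the cellular receptor for vitamin A, read 3.54, 2.93 and 3.86 against -0.26, 0.15 and -0.05 (11.3-fold).

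Genes of the pancreatic acinar and adipocyte lists were among the largest differences. Of 20 pancreatic acinar probes 4 were higher, Pnliprp1, Pnliprp2, Rnase1 and Cela2a, and 3 were higher and 1 lower without AOM/DSS 3 and 7 higher without water 1. The call of Rnase1, a secreted ribonuclease, rests on the choice of offset: AOM/DSS 1 and water 1 both read 1.02, its zero is open by 1.89, and the groups overlap at the highest offset. The median response of the list was 1.14, and -0.15 without AOM/DSS 3. Pnliprp1, a lipase-related protein, read 5.37, 3.47 and 7.23 after AOM/DSS and 2.73, -0.18 and -0.23 on water. Pnliprp2 read 4.05, 1.42 and 4.41 after AOM/DSS. The list median was 0.01 and 0.11 on AOM/DSS 1 and 2, so both genes were high there without most of the list. Cela2a, an elastase, read 0.24, 0.48 and 6.36 and thus stood on AOM/DSS 3 alone, with a response of 0.31 without it. Of 18 adipocyte probes 5 were lower. Adipoq, adiponectin, read -4.49, -3.50 and -1.87 against -0.39, -0.56 and 1.78, and Lep, leptin, had a response of -1.58 that was -1.15 without water 3. The part of adherent pancreas or fat in these and other responses was not tested.

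A permutation test can be read from the deposited AOM/DSS values alone, since their zero is the median of all 12 arrays. It uses no deposited water value. It still compares the array sets, so an effect of treatment and an effect of the array set cannot be told apart in it. Where all 6 AOM/DSS arrays, WT and TSP-null, lay on one side of the 12-array median, the 6 water arrays lay on the other. Such a split has an exact two-sided permutation p of 0.00216 over 924 splits (Benjamini-Hochberg adjusted p = 0.0359). It speaks of both genotypes together. The 6 treated arrays were higher for 582 of 28853 probes (2.02%) and lower for 1159 (4.02%). Among the probes higher in TSP-null colon 64 of 808 (7.92%) were separated in this way, and among those lower 144 of 521 (27.6%). The 6 TSP-null arrays enter both the call and the separation. Shares above those of all probes are therefore partly built in and do not support the calls.

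The separated genes with the largest TSP-null responses upward were Mt4, Wif1, Cpa3, Grap2 and H2-M2. Mt4 read 4.24, 2.92 and 5.02 after AOM/DSS against -0.26, -0.03 and -0.08 in TSP-null colon, and its WT treated arrays read 2.86, 0.03 and 0.10, so that the separation in WT was narrow on 2 arrays. Grap2, an adaptor of T cell receptor signaling, read 0.74, 1.20 and 3.79 against -1.40, -1.23 and -0.41. H2-M2, a nonclassical MHC class I gene, read 1.94, 1.68 and 2.46 against -0.41, -0.88 and -0.88. Downward the leading genes were Agbl2, Mir1a-1, Slc16a9, Meig1 and Vmn2r104. Agbl2, a carboxypeptidase that trims tubulin, read -0.95, -1.85 and -2.14 against 0.25, 0.20 and 0.38. Slc16a9, a transporter of the monocarboxylate family, lay below 0 on all 6 AOM/DSS arrays, with TSP-null arrays at -1.52, -1.40 and -1.57 against 0.04, 0.47 and 0.07. Its WT treated arrays read -0.72, -0.04 and -1.40, so that the separation was narrow on WT AOM/DSS 2. A second Slc16a9 probe had a TSP-null response of -1.43 but was not separated, since WT treated arrays read up to 0.66. Meig1, a meiosis gene, read -0.57, -0.60 and -1.18 against 0.57, 0.68 and 1.22, and its WT response of -1.83 was of similar size to the -1.61 in TSP-null colon.

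MicroRNA genes and chemosensory receptors were separated downward more often than upward. Of 301 microRNA gene probes 38 were lower on all 6 AOM/DSS arrays (12.6%) and 4 higher (1.33%), of 1035 olfactory receptor probes 83 were lower (8.02%) and 7 higher, and of 174 vomeronasal receptor probes 19 were lower (10.9%) and 1 higher, beside the 4.02% and 2.02% of all probes. These gene classes were grouped after their values were seen. The differences were mostly small, and few reached 2-fold in TSP-null colon: 8 microRNA probes were lower and 8 higher (6 to 11 whichever array was left out), and 13 of the 1209 receptor probes were lower and none higher (5 without AOM/DSS 2 and 4 without water 3). The median response of the receptor probes was 0.07 in TSP-null colon and -0.20 in WT colon. For the microRNA probes it was 0.06 in TSP-null colon, with 175 of 301 above 0, and -0.18 in WT colon. Whether these probes carry transcript above background cannot be read from relative values, and the part of background in them was not tested.

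**Figure D5:**
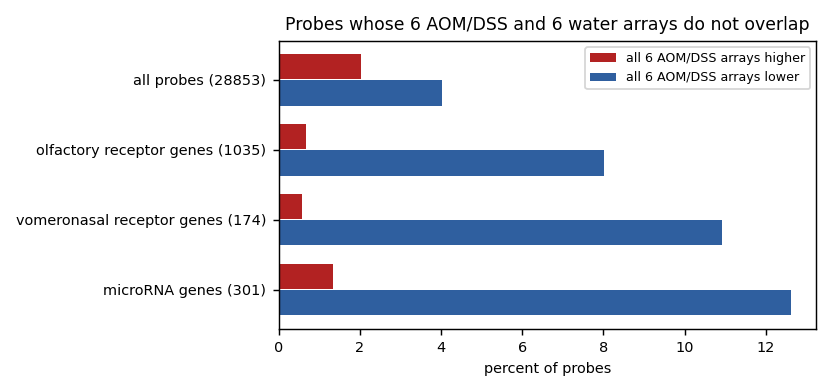
Percent of probes (x axis) for which all 6 AOM/DSS arrays lay above (red) or below (blue) all 6 water arrays, for all probes and for 3 gene classes (y axis, number of probes in brackets). The lower share is 4.02% over all probes and 12.6% over microRNA genes.

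The microRNA genes with a separation include relatives that share a seed, the bases 2 to 8 by which a mature microRNA recognizes its targets. The probes read the transcript of the gene, not the mature RNA. Of the 42 genes, 41 matched a mature sequence in RefSeq (GRCm38.p6). The sequences below are shown because they place the genes in families, with the seed in capitals.
mmu-let-7f-5p: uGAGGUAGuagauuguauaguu
mmu-miR-98-5p: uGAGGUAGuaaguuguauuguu
mmu-miR-15b-5p: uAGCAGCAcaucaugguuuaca
mmu-miR-16-5p: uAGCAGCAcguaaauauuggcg
mmu-miR-125b-5p: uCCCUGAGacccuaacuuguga
mmu-miR-200b-3p: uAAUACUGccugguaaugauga
mmu-miR-141-3p: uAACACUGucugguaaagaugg

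The let-7 family, which represses growth and stem cell genes, was split. Mirlet7f-1 (mature let-7f-5p at chr13:48537889-48537910, minus strand) read 0.65, 0.41 and 0.52 after AOM/DSS and -0.78, -0.55 and -0.15 on water, and rose in both genotypes (WT response 0.96). Mir98 (chrX:151913229-151913250, plus strand), with the same seed, read -0.26, -0.41 and -0.37 against 0.06, 0.24 and 0.44 and fell in both (WT response -0.71). The pair of genes with one seed therefore went opposite ways. Mir15b (chr3:69009775-69009796, plus strand) and Mir16-2 (chr3:69009918-69009939, plus strand), which share a seed and lie side by side, both fell, with TSP-null responses of -0.86 and -0.54. Mir125b-1 (chr9:41581940-41581961, plus strand) and Mir125b-2 (chr16:77646279-77646300, plus strand), which encode the same mature RNA, fell by 0.56 and 1.05 on the log2 scale in TSP-null colon.

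The miR-200 family keeps epithelial cells from turning mesenchymal, and its members here were also split. Mir200b (chr4:156055685-156055706, minus strand) read 0.63, 0.50 and 0.98 after AOM/DSS and -0.70, -0.33 and -0.26 on water, while Mir141 (chr6:124717917-124717938, minus strand) read -0.47, -0.87 and -0.79 against 0.46, 0.50 and 0.72. Both were separated on all 12 arrays in opposite directions, with WT responses of 0.38 and -1.25. Their cluster neighbours were not separated: Mir200a had a TSP-null response of -0.09 and Mir200c of 0.41. Mir1a-1, a muscle microRNA gene, had the largest drop of the class, at -0.67, -0.95 and -1.18 against 0.65, 0.91 and 0.71, and its paralog Mir1a-2 a response of 1.38. Of 39 microRNA probes in a window of chromosome 12 that holds a large imprinted cluster, 8 were separated downward (20.5%). Among them were Mir136 and Mir369, with TSP-null responses of -1.06 and -1.05. Outside the window 28 of 221 were separated downward (12.7%). The median response of all probes in the window was -0.001 in TSP-null colon and -0.19 in WT colon.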

How the data were processed

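Total colon RNA was measured on Affymetrix MoGene 1.0 ST arrays. The authors summarized the signals with PLIER (PLIER16), quantile normalized them and described each probe as expressed relative to its median over the samples. The deposited AOM/DSS columns are log2 values on that scale, whereas the water columns are log2 values on another baseline. Neither set was log transformed again. Relative values hold no absolute signal, so no filter on dim probes could be applied and no detection limit can be given. With 3 arrays per group, the number of arrays limits the precision. The labels call arrays biological replicates.

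All 28853 probes were kept. Of these, 28815 have values on all 12 arrays and 38 lack water values; 21789 carry 1 gene symbol, 1621 several and 5443 none, and a gene name was used where its probe has a single symbol. Where a range of offsets gives a 12-array median of 0, the midpoint was used (13.6% of probes are open by more than 0.001, at most by 2.81). Genotype differences in the response were fitted with limma 3.58.1 in R 4.3.3, with 1 mean per group on the 12 arrays and the deposited values. Calls needed a difference of at least 2-fold and an adjusted p (Benjamini-Hochberg) below 0.05. The other steps used Python 3.11.15, numpy 2.4.6 and pandas 2.3.3, and were tested on simulated data.

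The genes named were the 12 largest responses each way without overlap, up to 4 members of each of the 39 lists, the study's leading and discussed genes, the 5 largest separated responses each way, called genotype differences and separated microRNA genes. Other genes, such as Notum, Axin2, Itln1, Mcpt4, Isl1, Cdx2, Chga, Lcn2, Cd163, S100a9, Rfx1, Mir200a and Mir1a-2, were added after their values were seen. The comparison, its members and the gene lists were chosen with earlier results of these data known. Some genes of the study are not reported here. Alternatives covered the offset, array scaling, fold minimum, overlap, variable probes, probes with 1 symbol, each array left out, and a replicate block. The lowest and highest offsets (for the counts and for single genes), and leaving out AOM/DSS 3 with water 1, were chosen after seeing the data.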

Additional observations from a re-analysis of the deposited data

Results flagged for a closer look

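The responses of 2 genes differed between TSP-null and WT colon by a test of the difference itself. The Rfx4 response was higher in TSP-null colon by 6.39 on the log2 scale (limma adjusted p = 7.98e-06), with all 3 treated TSP-null arrays above the other 9, and its adjusted p stayed at or below 0.00012 whichever array was left out; with each array set quantile normalized separately the difference was 4.81 (adjusted p = 0.00909). The Atp6v0d2 response was higher by 2.99 (limma adjusted p = 0.0115), also with all 3 treated TSP-null arrays above the other 9, and its adjusted p ranged from 9.41e-05 to 0.0753 when 1 array was left out.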

How the results depend on the processing

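Counts are given as higher and lower in TSP-null colon, against 808 and 521. A 1.5-fold minimum gave 2297 and 1807, a 5-fold minimum 116 and 56, and probes with an SD under 0.5 in both groups 243 and 268. Quantile normalization again gave 335 higher, and use of the treated arrays alone, with no water values, 292 lower; the cause was not tested. Leaving out 1 TSP-null array gave 618 to 1147 higher and 400 to 710 lower. Leaving out AOM/DSS 3 and water 1 together, chosen after seeing the data, gave 731 and 420. Among 144 named probes, none that was called higher or lower changed direction, and a change of sign was not counted for the others. Of the 144, 45 moved by more than the replicate SD without the offset, 27 without water values and 70 after quantile normalization. Separation over 12 arrays was 443 higher and 672 lower over probes with 1 symbol, and leaving out 1 array gave 629 to 1541 higher and 1193 to 1600 lower, of which 1541 was without WT AOM/DSS 3 and 936 without WT AOM/DSS 2. Genotype differences numbered 2, then 20 with each array set quantile normalized separately, 82 with array weights and 89 over the 23461 probes with an SD under 0.5 in every group. Leaving out 1 array gave 1 to 292: 292 without WT AOM/DSS 1, 138, 30 and 6 without TSP-null AOM/DSS 2, 3 and 1, and 1 without WT AOM/DSS 3, WT water 1 or TSP-null water 2. For Atp6v0d2 the limma adjusted p was 0.0695 with that separate normalization.

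Replicate numbers do not pair the samples, since same-numbered arrays deviated together with correlations of -0.12, 0.14 and 0.12, and AOM/DSS 1 correlated best with water 2 (0.22). With a replicate block, each same-numbered pair at least 2-fold apart, 272 probes were higher and 202 lower, and in limma 1 genotype difference was called, Rfx4.

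These values hold no absolute signal, so a low gene and a silent one cannot be told apart, and the array set coincides with treatment throughout.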
